A study of Mus musculus with 24 samples.

Results

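Remote intergenic intervals are stretches of open chromatin that lie outside annotated genes and far from any annotated transcription start site (TSS). They were chosen from the deposited interval annotation by 4 criteria: chromosomes 1 to 19, the annotation Intergenic, a distance above 50000 bp to the nearest TSS, and a width under 3000 bp. The rule uses positions and labels but no count. It took 8046 of 145143 intervals (5.54%), and 6919 of the 8046 passed the filter on low counts and were tested for differences between lines.

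Open chromatin far from promoters marks candidate distal regulatory DNA: enhancers, silencers and sites bound by architectural proteins such as CTCF. Such elements can loop to promoters across long stretches of DNA, and they are as a class more cell-type specific than promoters. ATAC-seq reads them out through Tn5, a transposase that inserts sequencing adapters where DNA is not wrapped tightly, so that a higher count means more accessible DNA. Firre is an X-linked long noncoding RNA that is known to bind chromatin at sites on several chromosomes.

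The libraries came from mouse embryonic stem cells (mESC) kept on gelatin with LIF and with PD0325901 and CHIR99021, which inhibit MEK and GSK3 and hold the cells in a naive pluripotent state. Cells were of 4 kinds: wild type (WT) cells as a control, WT cells carrying a Firre transgene that can be induced (the WT Firre line), Firre KO cells, which lack Firre, as a second control, and Firre KO cells carrying an inducible transgene (the KO Firre line). Every line, controls included, received 1 ng/µL doxycycline, the drug that switches the transgene on, and was sampled once at 0, 30, 60, 90, 120 and 150 min. No 60 min library of the WT Firre line was used here, so there are 23 libraries: 5 of that line and 6 of each other line. Contrasts between lines used the time points of a line as its replicates. The labels name no separate clone, culture or transgene promoter, so genotype and line cannot be told apart, and the p-values measure only the spread between libraries of 1 line each, which may be technical.

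Libraries held 5725518 to 14977148 counts (median 7664147). Levels are in CPM, counts scaled to the library size; a count of 0 allows up to 0.196 to 0.549 CPM across the libraries, from a floor of 3 counts, which covers counting error only. The stem cell label was checked at the promoter-proximal intervals of Pou5f1, Nanog, Sox2, Esrrb, Zfp42 and Klf4: all 6 genes had one, at 22.0 to 72.2 CPM. Summed over the list, WT control libraries had 205 to 228 CPM and KO control libraries 232 to 282 CPM. Promoter-proximal intervals of 14 of 19 fibroblast markers were also present, with sums of 193 to 214 CPM and 199 to 229 CPM in the same lines. For 19 of 26 germ layer and trophoblast regulators the sums were 289 to 309 CPM and 304 to 323 CPM. The part of these shifts in the results below was not tested.

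Although these intervals are far from every TSS in the deposited annotation, 86 of the 8046 contain a start site of the RefSeq gene set on the same build (GRCm38.p6, which is mm10). The 90 starts belong to 84 genes, of which 82 are lncRNA genes and 2 are protein coding. The 86 intervals were more accessible than the other 7960, with a median of 4.65 CPM against 2.47 CPM, and that order held in 23 of 23 libraries. They were also wider, with a median of 1045.5 bp against 599 bp, and per kb of width the medians were 4.86 and 4.18 CPM.

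The RefSeq promoter windows of these starts, from 250 bases before to 50 bases after the start, were poor in CG dinucleotides, the sites of DNA methylation that are dense in CpG island promoters. Only 1 of the 90 windows held 20 or more CG (1.11%), against 26.5% of all 32851 RefSeq promoter windows of the same length. The exception was Gm35420 on chromosome 11, with exactly 20. The median was 5 CG, against 7 in all RefSeq windows. These sets were not matched by gene type, and 82 of the 84 genes here are lncRNA genes. Of the 3 windows printed here in the 5′ to 3′ direction of the gene, with every CG in capitals, the Gm51425 window sits in the most accessible interval with a RefSeq start. The Gm39767 window belongs to the interval with the largest rise, and the Gm35481 window to the interval with the largest fall, among those with a RefSeq start that were called between the KO control and the WT control.
Gm51425, chr17:17004866-17005165, plus strand: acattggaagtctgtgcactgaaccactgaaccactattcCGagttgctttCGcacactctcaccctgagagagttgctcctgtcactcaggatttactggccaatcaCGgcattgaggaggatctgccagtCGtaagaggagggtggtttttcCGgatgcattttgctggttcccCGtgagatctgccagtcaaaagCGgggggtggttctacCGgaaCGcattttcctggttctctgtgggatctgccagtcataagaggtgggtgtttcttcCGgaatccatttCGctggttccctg
Gm39767, chr2:21964118-21964417, minus strand: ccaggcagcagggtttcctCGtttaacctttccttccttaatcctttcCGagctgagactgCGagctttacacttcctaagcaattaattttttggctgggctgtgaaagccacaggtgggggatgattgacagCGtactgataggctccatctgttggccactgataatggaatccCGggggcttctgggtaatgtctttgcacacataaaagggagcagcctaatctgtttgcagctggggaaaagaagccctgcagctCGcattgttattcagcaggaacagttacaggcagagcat
Gm35481, chr2:171638963-171639262, minus strand: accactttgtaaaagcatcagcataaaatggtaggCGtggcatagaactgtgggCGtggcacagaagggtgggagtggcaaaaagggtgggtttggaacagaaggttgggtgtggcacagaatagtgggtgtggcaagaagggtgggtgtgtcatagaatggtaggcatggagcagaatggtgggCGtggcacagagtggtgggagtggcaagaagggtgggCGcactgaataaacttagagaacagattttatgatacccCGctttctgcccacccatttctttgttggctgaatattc

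The Gm51425 window holds 11 CG and 3 copies of the 12 letters gatctgccagtc. The Gm39767 window holds 6 CG, and the Gm35481 window holds 5 CG and 2 copies of GGGTGTGG, a letter string that KLF factors are known to bind. Over both strands GGGTGTGG occurred in 5 of the 90 windows (5.56%) and in 3.56% of all RefSeq windows. The POU octamer ATTTGCAT occurred in 4 windows (4.44%; 1.74% of all), the SOX string ACAATGG in 6 (6.67%; 3.66%) and the AP-1 string TGANTCA in 9 (10%; 7.81%). TATAAA occurred in 11 (12.2%; 13.6%), and the ESRRB string TCAAGGTCA in 0 (0.423% of all). These are letter matches in these windows and not measured sites.

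The interval holding the Gm51425 start had 19.1 to 23.6 CPM (median 22.0) in the WT control and 19.5 to 31.1 CPM (median 24.2) in the KO control. The 2 ranges overlapped, and the difference was not called (log2 difference 0.19 ± 0.09 SE, adjusted p = 0.207, edgeR quasi-likelihood test). The interval with the Gm39767 start had 2.97 to 4.76 CPM (median 4.34) in the WT control and 5.48 to 6.65 CPM (median 5.72) in the KO control, with no overlap. It rose by 0.49 ± 0.14 on the log2 scale (adjusted p = 0.0161). In the KO Firre line the same interval had 3.89 to 4.64 CPM (median 4.05), below every KO control library. The interval was picked for its rise in those KO control libraries, which favours that order. The interval with the Gm35481 start had 5.10 to 8.56 CPM (median 7.19) in the WT control against 3.38 to 6.46 CPM (median 4.89) in the KO control, and fell by 0.44 ± 0.14 SE on the log2 scale (adjusted p = 0.0294) with overlapping ranges.

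Remote intervals were small and weakly accessible. Their median width was 603 bp, against 677 bp for intergenic intervals 1 to 50 kb from a TSS (38206 intervals, chosen by the same chromosomes and width) and 1198 bp for promoter intervals (16978). Median levels over the 23 libraries were 2.49, 3.08 and 12.2 CPM. Per kb of width the medians were 4.19, 4.51 and 9.23 CPM. In each of the 23 libraries the remote median per kb was below the near-gene one, by a factor of 1.04 to 1.11. A level of 10 CPM or more was reached by 558 remote intervals (6.94%), by 11.1% of near-gene intergenic intervals and by 55.3% of promoters.

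Most remote intervals were only moderately remote. The median distance was 78892 bp, and 5467 of the 8046 (67.9%) lay within 100 kb. Between 100 and 200 kb there were 2080, between 200 and 500 kb 492, and beyond 500 kb 7. Median levels were 2.59, 2.35, 2.09 and 1.78 CPM in these 4 bins. At the edge of the rule the level did not step: 204 intergenic intervals at 49 to 50 kb had a median of 2.61 CPM, and 228 at 50 to 51 kb had 2.80 CPM. At the width limit, 13 intervals from 2800 bp up to the limit had a median of 22.0 CPM, and 5 of 3000 to 3200 bp had 23.6 CPM.

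The nearest gene was a processed pseudogene for 30.1% of remote intervals, a protein coding gene for 22.9% and a lincRNA for 20.4%. For near-gene intergenic intervals the same shares were 22.97%, 36.0% and 17.6%. A nearest gene is used below as an address and not as a target. The 8046 intervals shared 3307 nearest genes, and 1483 of those genes had a single remote interval. RefSeq places 865 of the 8046 (10.8%) inside a gene body, mostly of lncRNA genes (749), although the deposited annotation calls them Intergenic.

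The 8 most accessible remote intervals reached 35.3 to 71.8 CPM, well into the range of promoters. The highest was chr15:74186765-74187986, 93042 bp from the processed pseudogene Gm15387. It had 49.7 to 64.0 CPM (median 55.6) in the WT control and 66.8 to 111 CPM (median 76.3) in the KO control, without overlap. The KO Firre line had 55.1 to 93.5 CPM (median 74.9). In the WT Firre line its values were 60.4, 55.5, 65.6, 79.9 and 91.7 CPM at 0, 30, 90, 120 and 150 min. The next was chr13:110018481-110020735, nearest to Mir1904 and inside the RefSeq lncRNA gene Gm32881, with 41.9 to 49.7 CPM (median 45.7) in the WT control and 52.6 to 74.5 CPM (median 62.5) in the KO control. Both intervals were called higher in the KO control, by 0.56 ± 0.09 and 0.45 ± 0.09 on the log2 scale (adjusted p = 6.93e-06 and 0.000114). An interval 91124 bp from Rybp, which encodes a subunit of variant Polycomb complexes, ranked next with a mean of 47.5 CPM. It was not called in any line contrast.

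Remote intervals tended to stand in runs. With gaps of at most 12.5 kb, 4619 of the 8046 (57.4%) belonged to 1525 runs of 2 or more, against 75.8% of near-gene intergenic intervals. The longest run had 20 intervals over chr2:172604584-172715086, with Tfap2c, which encodes a transcription factor of trophoblast and germ cells, as a nearest gene. Its summed level was 104 ± 3.5 CPM in the WT control (SD, n = 6) and 94.3 ± 4.4 CPM in the KO control (n = 6). Of its 17 tested intervals 3 were called lower and 0 higher between these lines, with a median log2 difference of -0.28. Over all tested intervals 2.47% were called lower and 5.5% higher in this contrast. The next run had 17 intervals over chr11:114523027-114612841, near 4932435O22Rik and Gm11689, at 136 ± 4.1 CPM in the WT control and 170 ± 10 CPM in the KO control. Of its 16 tested intervals 4 were called higher and 0 lower, with a median of 0.28. The other runs of 14 or more, 4 in number, had 1 called interval together, in the run near Rybp.

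Few genes of the lists examined had a remote interval as the annotation assigns them. They were 2 of 26 germ layer and trophoblast regulators, 7 of 89 developmental transcription factors and 7 of 79 neuronal adhesion and guidance genes. Of 27 naive pluripotency genes 2 had any. Esrrb, an orphan nuclear receptor that sustains naive stem cells, had 5 intervals, and Jarid2, a cofactor of Polycomb complex 2, had 1. The highest Esrrb interval, chr12:86524763-86527114, had 9.60 to 13.1 CPM (median 10.8) in the WT control and 8.42 to 12.7 CPM (median 11.4) in the KO control. The Jarid2 interval, chr13:44677911-44679872, had 21.4 to 24.1 CPM (median 22.2) and 16.2 to 23.2 CPM (median 19.96) in the same lines. None of the 6 intervals was called between lines by edgeR. Among germ layer and trophoblast regulators 19 intervals were assigned, 17 of them to Tfap2c. Of the 16 tested, 2 were called lower in the KO control, and 1 was called higher with the transgene in the KO line, where 2.47% and 0.569% of all tested intervals were so called. Developmental transcription factors had 27 (21 tested, Sox11 with 9), with 0 called in the 3 line contrasts. Neuronal adhesion and guidance genes had 13 (12 tested), with 1 called lower in the KO control. Over all tested intervals 7.97% were called in either direction between the controls. With the transgene 0.913% were called in the KO background and 0.0818% in the WT background. With so few intervals tested, 0 called is near these shares.

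**Figure D1:**
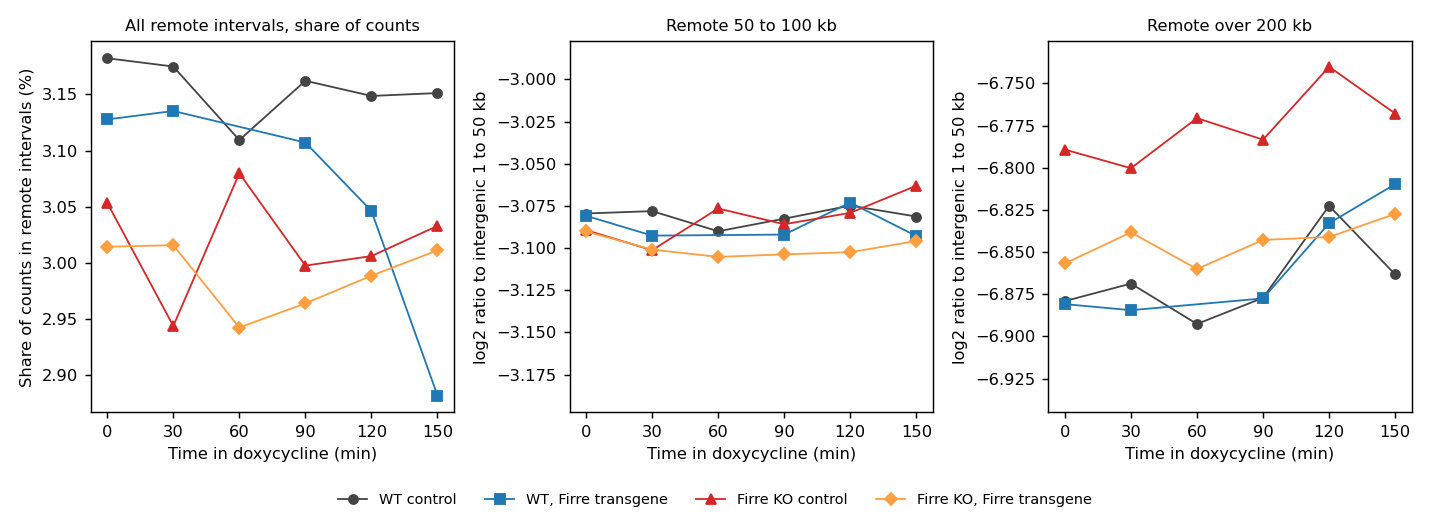
Remote intervals by line and time in doxycycline, 1 library per point: left, the percent of all counts that fell in the 8046 remote intervals; middle and right, the log2 ratio of counts in remote intervals at 50 to 100 kb and over 200 kb to counts in intergenic intervals 1 to 50 kb from a TSS, on axes of equal span. The WT control is above the KO control in the left panel, and the KO control is above all other lines in the right panel.

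The share of all counts that fell in remote intervals was 3.15% ± 0.026 in the WT control (SD, n = 6) and 3.02% ± 0.048 in the KO control (n = 6). Values ran from 3.11% to 3.18% and from 2.94% to 3.08%, with no overlap, and the difference of -0.136 percentage points had p = 0.00649 (exact permutation test, two-sided, adjusted over 3 contrasts). In the KO Firre line the share was 2.99% ± 0.030 (n = 6), which did not differ from its control beyond the spread (difference -0.03, adjusted exact p = 0.229). The WT Firre line had 3.06% ± 0.105 (n = 5), and the difference from its control was -0.095 points (adjusted exact p = 0.0195). Its libraries had 3.13%, 3.14%, 3.11%, 3.05% and 2.88% at 0, 30, 90, 120 and 150 min, so the last 3 lie below every WT control library. Without the 150 min library the difference was -0.051 points.

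Against the WT control, the share in promoter intervals moved the other way in each other line. It was 26.9% ± 0.57 in the WT control (n = 6), 28.0% ± 1.5 in the WT Firre line (n = 5), 28.9% ± 1.5 in the KO control (n = 6) and 28.7% ± 1.1 in the KO Firre line (n = 6), and it reached 30.6% in the WT Firre library at 150 min. Its part in the differences of the remote share was not tested. A ratio to the near-gene intergenic intervals cancels the scaling of the library. For all remote intervals the log2 ratio differed by 0.01 between the KO and WT controls (adjusted exact p = 0.188). It differed by -0.02 between the KO Firre line and the KO control (adjusted exact p = 0.013), and by -0.0029 between the WT lines (adjusted exact p = 0.550).

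The ratio depended on distance. At 50 to 100 kb the KO and WT controls did not differ beyond the spread (log2 ratio difference -0.0015, adjusted exact p = 0.797). Beyond 100 kb the KO control was higher by 0.04 (adjusted exact p = 0.00649), and beyond 200 kb by 0.09 (adjusted exact p = 0.00325). In the bin beyond 200 kb the 6 KO control libraries had ratios of -6.80 to -6.74 (median -6.78), and all lay above the 6 WT control libraries, at -6.89 to -6.82 (median -6.87). The KO Firre line had -6.86 to -6.83 (median -6.84), below every KO control library, a difference of -0.07 (adjusted exact p = 0.00325). Both of these contrasts use the same KO control libraries. The WT Firre line had -6.88, -6.88, -6.88, -6.83 and -6.81 at 0, 30, 90, 120 and 150 min, a difference of 0.01 from its control (adjusted exact p = 0.587). Without chromosome 11 the differences beyond 200 kb were 0.08, -0.06 and 0.01, and without the KO control at 30 and 90 min they were 0.10, -0.08 and 0.01. The bins at 50 to 100 kb and over 200 kb were chosen after the data were seen.

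**Figure D2:**
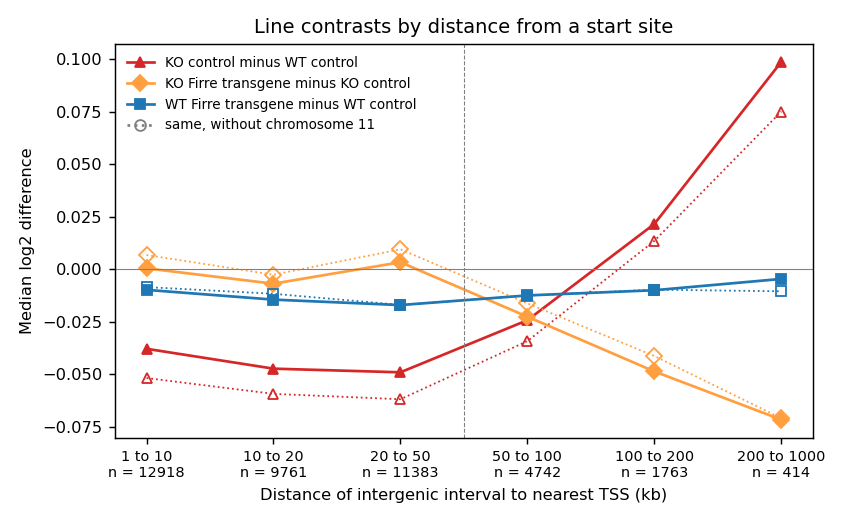
Median log2 difference of tested intergenic intervals in 6 bins of distance to the nearest TSS, for 3 line contrasts; the dashed line marks the 50 kb limit, open symbols leave out chromosome 11, and n is the number of intervals in the solid symbols. The KO against WT medians run from -0.04 at 1 to 10 kb to 0.10 beyond 200 kb.

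Per interval, the same order was seen in the medians. For the KO control minus the WT control the median log2 difference was -0.04, -0.05 and -0.05 at 1 to 10, 10 to 20 and 20 to 50 kb, and -0.02, 0.02 and 0.10 at 50 to 100, 100 to 200 and over 200 kb. With intervals of a mean of at least 20 counts the 3 remote medians were -0.00, 0.04 and 0.14. For the KO Firre line minus the KO control the 3 remote medians were -0.02, -0.05 and -0.07, and for the WT lines -0.01, -0.01 and -0.00. The spread between libraries of a line in the median over all remote intervals was 0.0086 to 0.014 (SD). It was not computed for the medians of single bins. For the log2 ratio to near-gene intervals the SD between libraries of a line was 0.0052 to 0.013 at 50 to 100 kb and 0.012 to 0.034 beyond 200 kb.

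Between the KO control and the WT control 259 remote intervals were called higher and 127 lower at an adjusted p of 0.05. These are 3.74% and 1.84% of the 6919 tested, below the background of 5.5% higher and 2.47% lower over all 129515 tested intervals. At a mean of at least 20 counts the shares of remote intervals called in either direction were 7.66%, 9.78% and 8.88%. These are the bins at 50 to 100, 100 to 200 and over 200 kb. The near-gene shares with such counts were 7.79%, 7.77% and 7.68% at 1 to 10, 10 to 20 and 20 to 50 kb. The median log2 difference of all tested remote intervals was -0.01, beside -0.02 over all tested intervals. Scaling by total counts in place of TMM turned the split to 130 higher and 306 lower and moved the median of all intervals to -0.11. Adding the promoter share of each library as a covariate left 4 higher and 0 lower. That share, over promoter intervals of any width and chromosome, was 32.1% to 33.7% in the WT control and 35.0% to 37.0% in the KO control. The ranges do not overlap, so this fit cannot tell the share and the line apart. Without the KO control at 30 and 90 min the counts were 71 and 24. The called intervals differed by a median of 0.52 on the log2 scale in absolute size.

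**Figure D3:**
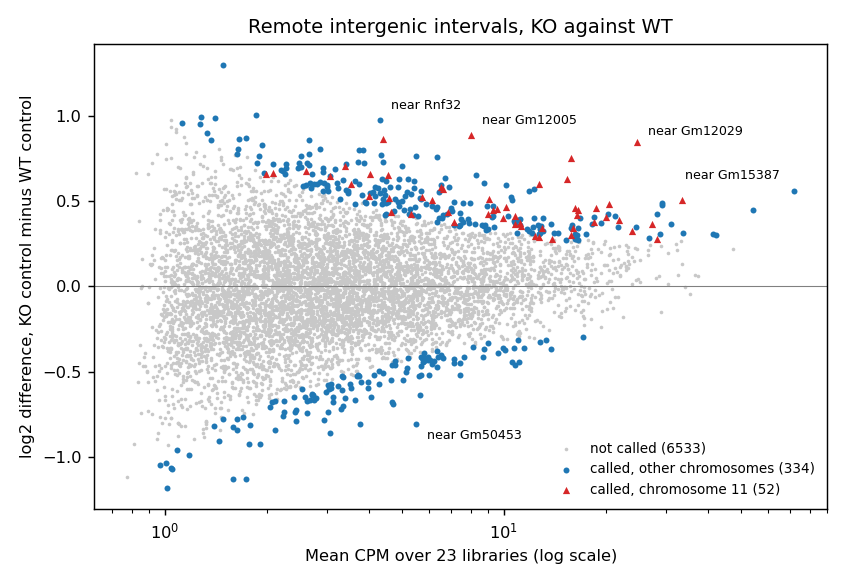
Each point is 1 of the 6919 tested remote intervals, by mean CPM (log axis) and log2 difference between the KO control and the WT control; colours mark intervals called at an adjusted p of 0.05 and chromosome 11. All 52 called intervals on chromosome 11 lie above 0.

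Chromosome 11 stood apart. Of its 411 tested remote intervals 52 were called higher and 0 lower in the KO control (12.7% called), with a median log2 difference of 0.18. Scaling by total counts gave 32 higher and 4 lower with a median of 0.09, and the promoter share covariate 2 higher and 0 lower with a median of 0.26. Without the KO control at 30 and 90 min 24 were higher and 0 lower, with a median of 0.21. On the other 18 autosomes 207 were higher and 127 lower of 6508 (5.13% called), with chromosome medians from -0.06 to 0.03. Over all tested intervals 5.5% were called higher and 2.47% lower. The pattern was not particular to remote intervals. Leaving out chromosome 11 lowered the share called from 6.17% to 5.42% for intergenic intervals at 1 to 10 kb, and from 5.15% to 4.64% at 50 to 100 kb. The chromosome 11 median of single libraries against the WT control mean was 0.12 to 0.23 in the KO control, 0.04 to 0.10 in the KO Firre line and -0.07 to 0.04 in the WT Firre line. In the KO Firre line against the KO control, 0 of the 411 were called higher and 10 lower, with a median of -0.13, where 0.344% of all tested intervals were called lower. DESeq2 called 1 lower, and without the KO control at 30 and 90 min 1 was lower, with medians of -0.14 and -0.15.

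**Figure D4:**
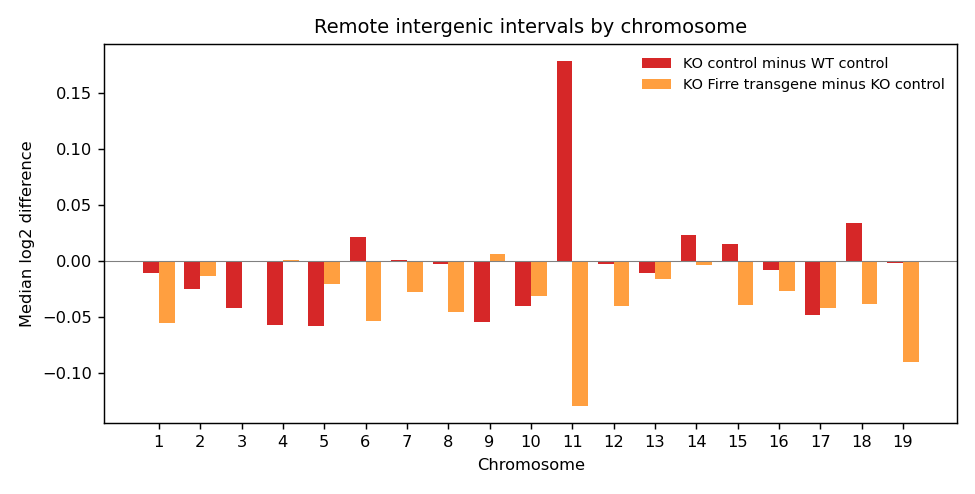
Median log2 difference of tested remote intervals on each autosome for the KO control minus the WT control and for the KO Firre line minus the KO control. The chromosome 11 bars, 0.18 and -0.13, are the longest of each contrast, which share the KO control libraries.

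The remote interval with the smallest adjusted p of this contrast was chr11:19837152-19838342, 54095 bp from the processed pseudogene Gm12029. It had 17.6 to 20.6 CPM (median 18.2) in the WT control and 29.0 to 36.2 CPM (median 34.3) in the KO control. The KO Firre line stood between them, at 22.5 to 29.8 CPM (median 25.4), and the WT Firre line had 18.9, 17.7, 19.1, 20.1 and 26.8 CPM at 0, 30, 90, 120 and 150 min. The rise in the KO control was 0.85 ± 0.09 (adjusted p = 5.22e-13), and the KO Firre line differed from the KO control by -0.37 ± 0.08 (adjusted p = 0.00692). The interval was picked by the first contrast, and the second uses the same KO control libraries, which favours opposite signs.

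Among the farthest intervals, chr11:13614678-13616565 lies 546458 bp from Gm12005. It had 4.08 to 6.94 CPM (median 6.08) in the WT control and 9.10 to 13.9 CPM (median 10.9) in the KO control, without overlap, a rise of 0.89 ± 0.12 (adjusted p = 1.65e-08). With 7.39 to 10.7 CPM (median 8.35), the KO Firre line was not called against the KO control (adjusted p = 0.0828). The most remote of all, 625394 bp from Gm4854 on chromosome 1, was near the counting floor, at 0.649 to 1.56 CPM in the WT control and 0.250 to 1.44 CPM in the KO control. Its neighbour at 577868 bp had 6.66 to 10.9 CPM and 8.42 to 12.1 CPM in these lines and was not called in any line contrast.

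Among called intervals with a mean of at least 20 counts the largest rise was at chr5:29024925-29025603, 171323 bp from Rnf32, which encodes a RING finger protein. It had 2.12 to 4.49 CPM (median 3.50) in the WT control and 5.11 to 8.14 CPM (median 6.53) in the KO control, 0.97 ± 0.15 higher (adjusted p = 2.73e-06). The KO Firre line had 2.92 to 5.97 CPM (median 3.61) and differed from the KO control by -0.80 ± 0.15 (adjusted p = 0.000555). The 5.97 CPM was its 0 min library, and the other 5 libraries lay below every KO control library. Here too the KO control libraries by which the interval was picked serve both contrasts. Intervals nearest to Utp18 (chromosome 11), Gm45189 and Gm26362 rose by 0.87, 0.86 and 0.80.

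Falls in the KO control were of like size. At chr4:140496477-140498106, 51127 bp from Gm50453, the WT control had 4.80 to 7.61 CPM (median 5.65) and the KO control 1.83 to 4.99 CPM (median 3.00), a fall of 0.81 ± 0.16 (adjusted p = 0.000152). In the KO Firre line it had 4.34 to 6.96 CPM (median 6.03), higher than the KO control by 0.74 ± 0.16 (adjusted p = 0.00395). A neighbour in the same run of DNA, chr4:140502332-140502760, had 2.72 to 3.76 CPM (median 3.25), 1.46 to 2.75 CPM (median 2.00) and 3.26 to 4.97 CPM (median 4.18) in the same 3 lines. It fell by 0.65 ± 0.20 on the log2 scale in the KO control (adjusted p = 0.0263) and was higher with the transgene by 0.98 ± 0.19 (adjusted p = 0.000973). Both contrasts use the KO control libraries by which these intervals were picked, which favours opposite signs. Intervals nearest to D6Ertd474e, 2610028E06Rik, Gm25261, 4930554I06Rik and Hdac2, a histone deacetylase gene, fell by 0.73 to 0.86. With the promoter share covariate the calls between the KO and WT controls held at the intervals nearest to Rnf32, Gm12029 and Utp18 and ended at the others with the largest differences: Gm12005, Gm45189, Gm26362, D6Ertd474e, 2610028E06Rik, chr4:140496477-140498106 near Gm50453, Gm25261, 4930554I06Rik and Hdac2.

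Within the KO background the transgenic line had 50 remote intervals called higher (0.723%) and 45 lower (0.650%) than its control, beside 0.569% higher and 0.344% lower over all tested intervals. DESeq2 called 7 and 4. Without the KO control at 30 and 90 min the counts were 25 and 17. This contrast and the KO against WT contrast share the KO control libraries. Of its 95 called intervals 47 were also called between the KO and WT controls, all 47 in the opposite direction, which the shared libraries favour. The same overlap over all tested intervals is not given here, so nothing particular to remote intervals can be read from it. Among called intervals with a mean of at least 20 counts the largest fall, at chr2:149489479-149490567 nearest to the snoRNA gene Gm24551, was -0.998 ± 0.16 (adjusted p = 3.8e-05): the KO control had 4.76 to 7.34 CPM (median 6.00) and the transgenic line 1.89 to 4.59 CPM (median 2.60). The WT control had 2.69 to 5.04 CPM (median 4.64) there. At chr8:12062426-12063391, nearest to B020031H02Rik, the transgenic line had 3.45 to 4.26 CPM (median 3.8) against 0.877 to 2.84 CPM (median 1.92) in the KO control, with no overlap. It was higher by 0.95 ± 0.19 (adjusted p = 0.0023), a call that ended without the KO control at 30 and 90 min.

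In the WT background 9 remote intervals were called higher with the transgene (0.130%) and 0 lower, beside 0.061% and 0.0208% over all tested intervals. At an unadjusted p of 0.05 by edgeR 215 remote intervals were higher and 254 lower (6.78% together), beside 7.55% over all tested intervals. DESeq2 called 4 higher and 0 lower. The promoter share covariate left 1 of the tested remote intervals higher, and it ended the calls in this background at the intervals nearest to Gm21321, Gm49472 and Bbs4 described next. Without the WT Firre library at 0 min 4 were called higher, and without the WT control at 30 min 5. At chr10:7287521-7289681, nearest to Gm21321, the WT Firre line had 20.5, 17.6, 19.7, 20.1 and 21.5 CPM at 0, 30, 90, 120 and 150 min, and the WT control 11.2 to 15.95 CPM (median 13.7). It was higher by 0.54 ± 0.09 (adjusted p = 0.000274), already at 0 min. At chr15:87894331-87895636, nearest to Gm49472 and inside the RefSeq lncRNA gene Gm35599, the values were 12.7, 13.0, 13.9, 9.99 and 14.0 CPM against 7.93 to 8.92 CPM (median 8.43), 0.59 ± 0.11 higher (adjusted p = 0.000517). Neither interval was called in the KO background.

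Of the 95 intervals called in the KO background and the 9 called in the WT background, 2 were shared (2.11% and 22.2%), both higher with the transgene in both. These contrasts compare different libraries, but both came from the same fit, with common time terms and a common estimate of the spread. They are therefore not fully independent. The same overlap over all tested intervals is not given here. The first, chr9:59385791-59388031, lies 59398 bp from Bbs4, which encodes a subunit of the ciliary BBSome complex. At 0 min the transgenic lines had 9.67 CPM (KO) and 9.45 CPM (WT), inside the ranges of the controls, 8.68 to 12.3 CPM (KO) and 7.37 to 11.3 CPM (WT). From 30 min on the KO Firre line had 15.1, 14.0, 18.9, 18.1 and 17.1 CPM at 30, 60, 90, 120 and 150 min. The WT Firre line had 14.6, 16.2, 15.3 and 17.8 CPM at 30, 90, 120 and 150 min. All 9 of these libraries lay above all 12 control libraries. The line contrasts were 0.63 ± 0.10 (adjusted p = 8.98e-05) and 0.61 ± 0.11 (adjusted p = 0.000604), and their difference was 0.01 ± 0.15.

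The second, chr8:115477161-115478623, lies 107500 bp from the lincRNA gene 4930488N15Rik. The KO Firre line had 2.42 to 4.43 CPM (median 3.92) and its control 0.501 to 3.67 CPM (median 1.64). The WT Firre line had 3.54, 4.13, 3.14, 5.78 and 3.58 CPM at 0, 30, 90, 120 and 150 min, and its control 1.17 to 2.17 CPM (median 1.90). The contrasts were 1.01 ± 0.21 (adjusted p = 0.00283) and 1.21 ± 0.21 (adjusted p = 0.000329), and the first call ended without the KO control at 30 and 90 min. Here both transgenic lines were already at 3.70 and 3.54 CPM at 0 min, against 2.01 and 1.98 CPM in their controls.

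**Figure D5:**
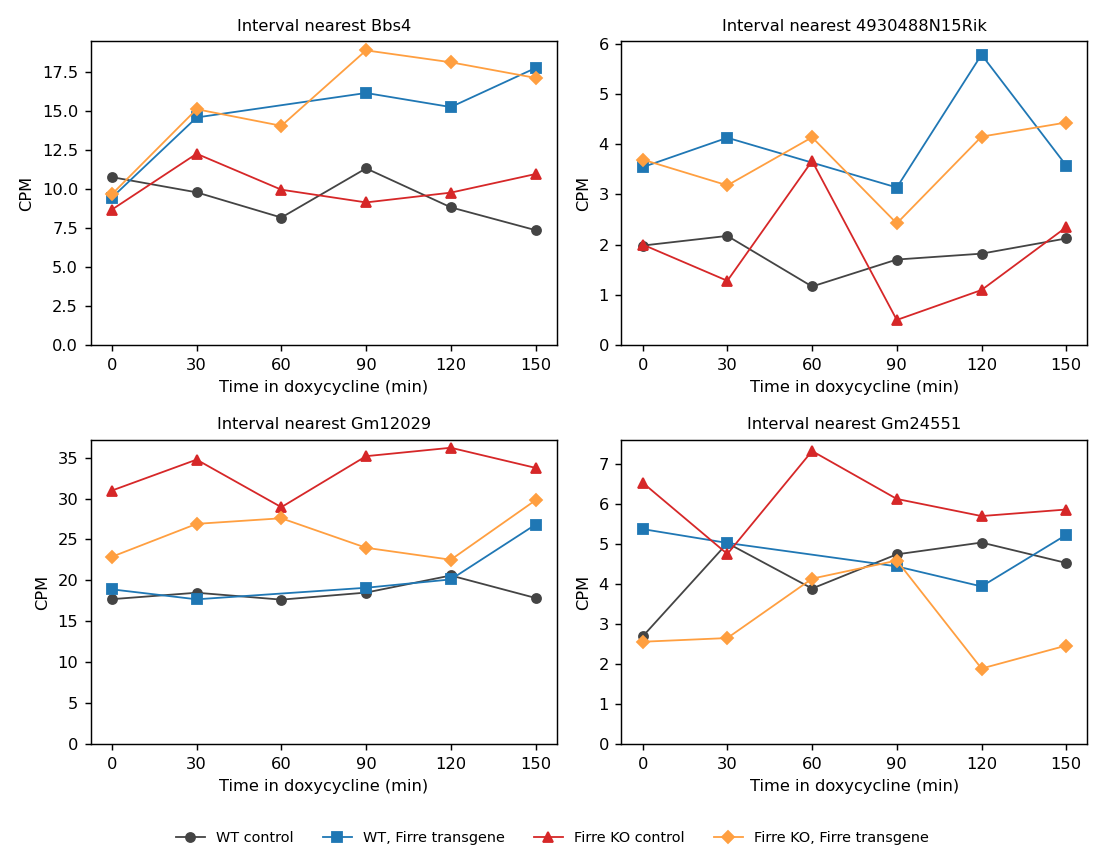
CPM in every library for 4 remote intervals by time in doxycycline, 1 library per point, each panel from 0. The interval nearest to Bbs4 is at control level at 0 min in both transgenic lines and above every control library from 30 min, whereas the interval nearest to 4930488N15Rik is higher at 0 min too.

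The response to induction was tested as the change from 0 min to the later times in transgenic lines minus that in control lines, with the KO and WT backgrounds as replicates. By edgeR 0 of 6919 remote intervals were called (0% over all tested intervals as well), and by DESeq2 0. At an unadjusted p of 0.05 there were 254 remote intervals (3.67%), beside 3.77% over all. The interval nearest to Bbs4 was among the 2 with the smallest p in the higher direction, at 0.72 ± 0.21 (unadjusted p = 0.000996, adjusted p = 1.00, edgeR), while its response in the control lines was 0.01 ± 0.15. The other was nearest to Gm48176, at 0.79 ± 0.23. In the lower direction these were intervals nearest to Gm5294 (-1.12 ± 0.30) and Alx4 (-1.92 ± 0.55), a homeobox gene. The Alx4 interval averaged only 11.2 counts a library, and its value leans on the single 0 min library of each line. The WT Firre line had 3.02 CPM there at 0 min and 1.02 to 1.16 CPM later. For doxycycline alone in the control lines 0 remote intervals were called by edgeR (0% over all) and 0 by DESeq2. At an unadjusted p of 0.05 there were 363 (5.25%), beside 5.27% over all.

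The difference between the transgenic contrasts of the KO and WT backgrounds was called at 12 remote intervals in the higher direction (0.173%) and 15 in the lower (0.217%), beside 0.128% and 0.138% over all tested intervals. DESeq2 called 0 and 1. Leaving out 1 library at a time gave 1 to 23 and 4 to 32, with both highest counts without the KO control at 150 min. Of the 27 intervals called, 22 were also called between the KO and WT controls, all 22 in the opposite direction. Both contrasts use the same KO and WT control libraries with opposite sign, which favours that pattern. The same overlap over all tested intervals is not given here. A difference in the effect of the transgene cannot be told apart from a difference between the control lines. At the interval nearest to Gm24551 the difference was -1.16 ± 0.23 (adjusted p = 0.00408): in the WT Firre line the values were 5.38, 5.03, 4.45, 3.94 and 5.24 CPM at 0, 30, 90, 120 and 150 min, inside or above the range of its control, while the KO Firre line was below its control in all 6 libraries.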

How the data were processed

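ATAC-seq counts of 23 libraries were analysed. The deposited table holds raw counts per consensus interval, with no normalization by the authors, and the deposited annotation gives each interval's position, nearest gene, gene type and distance to a TSS (HOMER-style fields per the file headers). The submitters' processing notes list featureCounts and MACS2 2.2.7.1, with mm10 as the build. Aligner, duplicate handling, transposase shift and the release of the annotation were not given in the sources used here. Positions are printed as the file gives them.

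All 129515 intervals that passed filterByExpr (minimum count 10, by line) were fitted with the quasi-likelihood test of edgeR 4.0.16 (TMM, line and time as terms, 14 residual degrees of freedom; 9 with transgene by time), with Benjamini-Hochberg adjustment across all of them. Standard errors (SE) were derived from the F statistic. Shares and ratios per library were compared by exact permutation tests, adjusted over 3 contrasts; 6 against 6 libraries cannot go below p = 0.00216. DESeq2 1.42.0, other scalings and filters, a promoter share covariate and leaving out libraries were tried as alternatives. The fit was also run on counts simulated with a common dispersion and known changes in both KO lines. That simulation held no shift in promoter share and cannot test its part in the calls. A library's precision is limited by its total, 5725518 counts at the lowest.

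Named intervals were the 8 highest by level, up to 6 called per direction and line contrast by size (mean of at least 20 counts), up to 4 per direction for the difference of contrasts, the 2 with the smallest p per direction where none was called, the 4 farthest, and the highest one of each naive pluripotency gene; the 3 RefSeq windows were chosen after values were seen. Intervals and gene lists were chosen with earlier results of these data known, among them the chromosome 11 pattern, which is no independent support. RefSeq genes and promoter sequences were matched by position on GRCm38.p6. No genome sequence of the intervals was used.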

Additional observations from a re-analysis of the deposited data

Results flagged for a closer look

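At 7 of 188 groups of 5 or 6 libraries, 1 library stood apart from the rest of its line; chance flags about 1 in 20 such groups. The KO Firre line had 5.97 CPM at 0 min at the interval nearest to Rnf32, far above its other times, and 2.70 CPM at 0 min at the interval nearest to Gm12004. At the interval nearest to Gm12029 the high libraries were the WT control at 120 min (20.6 CPM) and the WT Firre line at 150 min (26.8 CPM). At the interval nearest to D6Ertd474e they were the KO control at 120 min (3.40 CPM) and the WT Firre line at 0 min (4.72 CPM). At the interval nearest to Gm9816 the WT Firre line was low at 30 min (3.87 CPM).

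The transgenic contrast differed between the KO and WT backgrounds at 8 intervals that were named for this test, the test of the difference itself in edgeR. It uses the same KO and WT control libraries as the KO against WT contrast. It was higher in the KO background at the intervals nearest to Clrn1 (1.19), Gm50453 (1.05), 2610028E06Rik (0.98) and Ppp1r2-ps2 (0.98). It was lower at those nearest to Gm26379 (-1.54), Gm6458 (-1.50), Gm45189 (-1.18) and Gm24551 (-1.16). DESeq2 gave no adjusted p at any of the 8, so it says nothing about these calls. Leaving out 1 library ended the call in 19 of 23 fits at the Clrn1 interval, 18 at Gm50453, 17 at 2610028E06Rik, 16 at Ppp1r2-ps2, 10 at Gm45189, 6 at Gm6458, 5 at Gm26379 and 0 at Gm24551. With the promoter share covariate the calls ended at all of these but Gm24551. Intervals named for other contrasts were called too: those nearest to Gm6749 (-1.03 ± 0.18, adjusted p = 0.000584, edgeR) and Gm24132 (-1.11 ± 0.28, adjusted p = 0.0490, edgeR). The first had the smallest adjusted p of all remote intervals for this difference. Whether these calls hold under the alternatives was not examined.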

How the results depend on the processing

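Counts of called remote intervals moved with the processing, and most calls of single intervals rest on modest counts. Of 38 calls for which intervals were named, 8 held in every alternative that gave an adjusted p. In that set 21 ended with the promoter share covariate, 18 ended without 1 library and 0 changed direction. DESeq2 gave no adjusted p for 19 named values. With DESeq2 the counts higher and lower were 133 and 21 for the KO against WT control, 7 and 4 for the transgene in the KO, 4 higher for the transgene in the WT, and 0 and 1 for the difference of these contrasts. Scaling by total counts gave 130 and 306 for the KO against WT control and 21 higher for the difference. With loess offsets 70 were lower for the transgene in the KO, 1 lower for the transgene in the WT and 27 lower for the difference. The promoter share covariate left 4 and 0 (KO against WT), 1 higher (transgene in the WT) and 1 and 3 (difference). The ranges of that share do not overlap between the KO and WT controls, so it cannot be told apart from that line contrast. Without the KO control at 30 and 90 min there were 71 and 24, 25 and 17, and 1 higher for the difference. With no low count filter 5 and with a minimum of 30 counts 20 were higher for the difference. The cause of these shifts was not tested.

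Leaving out 1 library at a time gave 145 to 393 higher and 57 to 249 lower for the KO against WT control, lowest without the KO control at 90 min and highest without it at 150 min. Counts also moved by over 1.5 times without the KO control at 30 or 120 min or the WT control at 30 or 90 min. The same gave 26 to 54 and 23 to 53 for the transgene in the KO, 4 to 9 for the transgene in the WT, and 1 to 23 and 4 to 32 for the difference. The counts for the transgene in the KO moved by over 1.5 times without the KO control at 0, 30, 60, 90 or 120 min or the KO Firre line at any time from 30 min on.

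The median log2 difference of remote intervals in the KO against WT control was -0.095 by total counts, 0.056 with loess offsets, 0.024 with the promoter share covariate, -0.027 with a minimum of 30 counts and 0.033 beyond 100 kb. For the transgene in the KO it was -0.043 with no low count filter, -0.012 with a minimum of 30 counts and -0.053 beyond 100 kb. For the transgene in the WT it was -0.05 by total counts and 0.0094 with loess offsets.

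Pairing libraries by time, where 6 pairs cannot go below an exact p of 0.0312 and 5 pairs below 0.0625, the shares differed by -0.136 (KO against WT) and -0.104 points (transgene in the WT), and the log2 ratio by -0.025 (transgene in the KO), each with an adjusted exact p of 0.0938. The share for the transgene in the KO differed by -0.054 points without the KO control at 30 and 90 min (adjusted exact p = 0.0381) and by -0.0202 points beyond 100 kb (adjusted exact p = 0.026). For the transgene in the WT the share differed by -0.051 to -0.114 points without 1 library, with an adjusted exact p of 0.0595 without the WT control at 0, 30 or 90 min. The log2 ratio of KO against WT differed by 0.0071 to 0.0151 without 1 library and passed the threshold without the KO control at 30 min. Without it at 30 and 90 min the difference was 0.0167 (adjusted exact p = 0.0429).
That ratio differed by -0.0015 at 50 to 100 kb, by 0.0411 and 0.092 beyond 100 and 200 kb, by 0.0441 and 0.0828 in these bins without chromosome 11, and by 0.1003 beyond 200 kb without the KO control at 30 and 90 min. For the transgene in the WT it was -0.0052 at 50 to 100 kb and turned positive in the others: 0.0028, 0.0101, 0.00203, 0.0068 and 0.0101. No paired analysis by replicate number was possible because the labels carry none.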

Other observations

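The higher level on chromosome 11 in the KO control was spread along the chromosome. In 20 Mb steps from 0 to 120 Mb the median log2 difference of tested remote intervals was 0.24, 0.18, 0.12, 0.17, 0.12 and 0.21, over 111, 91, 64, 27, 60 and 58 intervals. The number called higher was 20, 14, 2, 4, 6 and 6.

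Some remote intervals cluster inside long lncRNA genes of RefSeq. Gm31724 on chromosome 11 held 16, up to 33.6 CPM, Gm30687 held 14, up to 20.1 CPM, and Gm19859 held 10, up to 16.3 CPM. Among protein coding genes Tln2, which encodes a cytoskeletal linker of integrins, held 8, up to 22.99 CPM.

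Wider remote intervals were called more often between the KO and WT controls: 2.14% of 2195 tested under 500 bp, 5.73% of 2808 at 500 to 1000 bp, 9.46% of 1713 at 1000 to 2000 bp and 7.88% of 203 above 2000 bp. Over all tested intervals of any width 7.97% were called. The median level of remote intervals rose along these bins from 1.23 to 2.98, 6.30 and 11.5 CPM. The part of the level in this order was not tested, and other intervals were not split by width.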
